A study of Mus musculus with 12 samples.

Results

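The genes described here are 10 effector genes of cytotoxic lymphocytes: Ncr1, Prf1, Gzma, Gzmb, Gzmk, Nkg7, Eomes, Tbx21, Fasl and Ifng. They were taken by name from the 40840 genes listed for each library, and all 10 passed the filter on low values. The libraries came from liver cells of male wild-type mice (WT, C57BL/6) and of male caspase-11-deficient mice (Casp11-/-, strain B6.129S4(D2)-Casp4tm1Yuan/J), which entered the diets at 8 to 10 weeks of age and received normal chow diet (NCD) or high-fat diet (HFD) for 12 weeks. Each of the 4 combinations of genotype and diet held 3 libraries, named below by combination and replicate number, and total RNA was sequenced after random priming. The labels call the material hepatic macrophages, whereas the methods of the study describe the sequenced material as the immune cell fraction of the liver, collected on 33% Percoll. The genotypes carry different strain names, so strain background and the Casp4 allele cannot be told apart, and the labels do not restrict that allele to a cell type. Nothing in the labels says that the libraries of a group came from separate isolations, so the p-values measure the spread between these libraries.

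Natural killer (NK) cells and cytotoxic T cells kill target cells by releasing granules that hold perforin and granzymes. Perforin opens the membrane of the target and lets the granzymes in, where they cleave proteins and start cell death. The same lymphocytes can also kill through Fas ligand and activate macrophages through interferon-γ, and the T-box factors Eomes and T-bet (Tbx21) drive this program. The liver is rich in NK cells and related innate lymphocytes, which lie in the sinusoids beside Kupffer cells, the resident macrophages.

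Values are TPM, an abundance corrected for gene length and scaled to a fixed library total, so levels can be compared between genes. Read counts are not given, and the depth behind each value is unknown. The lowest value was the same in each library, a floor just above 1 TPM. Casp4, which encodes caspase-11, was at 5.6 to 15.6 TPM in the WT libraries and at 2.56 to 15.2 TPM in the libraries labelled Casp11-/-, and 2 of these 6 lay within the WT range. One of them, Casp11-/- HFD replicate 2, had Casp4 at 8.68 TPM, and the heading of its data column abbreviates the genotype differently from those of the other libraries of its genotype. The other of these 2, Casp11-/- NCD replicate 3, had Casp4 at 15.2 TPM, above every WT library except WT-NCD replicate 2. A gene level does not show which exons were read, so genotypes are given as labelled. WT-NCD replicate 3 stood apart: 39677 of its genes exceeded the floor, where the other 11 libraries had 12940 to 18775, and its log2 values correlated negatively with theirs across genes. Its hepatocyte markers summed to 54.7 TPM against 6486 to 23336 TPM elsewhere. Against the label of macrophages, the 9 Kupffer cell markers summed to 48.6 to 850 TPM over all libraries, and markers of hepatocytes, B cells, T cells and NK cells were present beside them. The tests of diet and genotype on the 10 genes are therefore given with all 12 libraries and without this one, and other values name the libraries they use. The U3 small nucleolar RNAs held 25.8% to 58.5% of TPM on HFD and 0.031% to 4.85% on NCD, and protein-coding genes held 15.7% to 25.2% on HFD against 22.3% to 42.4% on NCD without WT-NCD replicate 3. Because TPM sum to a fixed total, values rescaled to the protein-coding total are given as well.

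All 10 genes had lower mean TPM on HFD than on NCD in both genotypes, although 4 of them turned higher in WT mice with all 12 libraries when the most abundant 1% of genes was removed, and Nkg7 did so on the log2 scale when WT-NCD replicate 2 was left out. Nkg7, Gzma and Gzmb were the most abundant. In bulk RNA, fewer cells of a type and less RNA per cell cannot be told apart. Nkg7, a membrane protein of cytotoxic granules that takes part in their release, measured 188, 262 and 16.4 TPM in WT-NCD, and 52.5, 60.3 and 80.3 TPM in WT-HFD, where values are listed in the order of the replicate numbers. It measured 214, 101 and 111 TPM in Casp11-/- NCD, and 44.3, 47.3 and 47.5 TPM in Casp11-/- HFD. The Casp11-/- HFD values lay within a few TPM of each other, below every other library except WT-NCD replicate 3.

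Gzma encodes granzyme A, a protease that cleaves after basic residues. Gzma was at 122, 186 and 15.1 TPM in WT-NCD, at 35.9, 21.1 and 25.6 TPM in WT-HFD, at 65.0, 105 and 63.7 TPM in Casp11-/- NCD and at 15.4, 32.8 and 37.6 TPM in Casp11-/- HFD. Every HFD library lay below every NCD library other than WT-NCD replicate 3. Gzmb, which encodes granzyme B, the granzyme best known for activating caspases, was at 67.7, 77.0 and 8.80 TPM in WT-NCD, at 24.2, 13.7 and 18.3 TPM in WT-HFD, at 136, 37.4 and 34.6 TPM in Casp11-/- NCD and at 12.6, 26.1 and 18.6 TPM in Casp11-/- HFD. The highest value came from Casp11-/- NCD replicate 1 and the lowest from WT-NCD replicate 3, and the other HFD and NCD libraries did not overlap.

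Prf1 encodes perforin, the pore-forming protein. Prf1 was at 46.6, 70.2 and 4.99 TPM in WT-NCD, at 12.6, 4.71 and 13.2 TPM in WT-HFD, at 30.9, 31.8 and 27.0 TPM in Casp11-/- NCD and at 8.19, 12.8 and 11.9 TPM in Casp11-/- HFD. Without WT-NCD replicate 3, the lowest NCD library was above the highest HFD library. Gzmk encodes granzyme K, found in NK cells and in memory T cells. Gzmk was at 21.4, 13.1 and 12.1 TPM in WT-NCD, at 4.56, 2.52 and 6.42 TPM in WT-HFD, at 12.3, 2.89 and 8.57 TPM in Casp11-/- NCD and at 2.67, 2.01 and 1.11 TPM in Casp11-/- HFD. Here WT-NCD replicate 3 was among the higher libraries, and diets did not overlap within a genotype even with it.

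Close relatives of Gzmb could share reads with it. Gzmc, Gzmd, Gzme, Gzmf, Gzmg and Gzmn were listed at the floor in the 11 libraries other than WT-NCD replicate 3, and Gzmm, a granzyme of NK cells, reached at most 1.15 TPM in them. In WT-NCD replicate 3 these 7 genes were at 9.04 to 14.6 TPM, beside 8.80 to 15.1 TPM for Gzma, Gzmb and Gzmk in that library.

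The promoters of Prf1, Gzma, Gzmb and Nkg7 are shown because these genes had the smallest p-values of the averaged diet comparison without WT-NCD replicate 3, given below. Each run holds the 250 bases before and the 50 bases after the start that RefSeq gives for GRCm38.p6, read 5′ to 3′ on the gene's strand. Prf1 is on the plus strand (chr10:61297586-61297885), Gzma on the minus strand (chr13:113100932-113101231), Gzmb on the minus strand (chr14:56262285-56262584) and Nkg7 on the plus strand (chr7:43436888-43437187). Capitals mark the letters AGGTGT, the core of T-box sites, and TGTGGT, the core of RUNX sites, on either strand, so that the complements ACACCT and ACCACA are in capitals too.
Prf1: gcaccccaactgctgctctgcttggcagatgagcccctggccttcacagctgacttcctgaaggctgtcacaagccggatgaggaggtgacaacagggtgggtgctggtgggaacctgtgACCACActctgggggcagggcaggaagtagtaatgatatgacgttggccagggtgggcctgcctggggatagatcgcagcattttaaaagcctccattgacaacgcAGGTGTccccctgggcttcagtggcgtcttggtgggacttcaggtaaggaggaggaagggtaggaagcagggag
Gzma: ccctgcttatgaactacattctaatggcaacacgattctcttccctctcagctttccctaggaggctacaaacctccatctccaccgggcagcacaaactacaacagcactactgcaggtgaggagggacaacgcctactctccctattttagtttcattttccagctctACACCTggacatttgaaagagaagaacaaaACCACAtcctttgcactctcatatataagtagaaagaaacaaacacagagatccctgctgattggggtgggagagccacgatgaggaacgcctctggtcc
Gzmb: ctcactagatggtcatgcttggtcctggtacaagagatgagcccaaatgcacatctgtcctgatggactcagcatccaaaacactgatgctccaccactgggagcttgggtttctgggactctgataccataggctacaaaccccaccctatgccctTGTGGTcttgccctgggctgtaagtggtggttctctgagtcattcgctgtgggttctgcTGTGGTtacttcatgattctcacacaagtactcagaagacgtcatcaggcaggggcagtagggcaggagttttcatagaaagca
Nkg7: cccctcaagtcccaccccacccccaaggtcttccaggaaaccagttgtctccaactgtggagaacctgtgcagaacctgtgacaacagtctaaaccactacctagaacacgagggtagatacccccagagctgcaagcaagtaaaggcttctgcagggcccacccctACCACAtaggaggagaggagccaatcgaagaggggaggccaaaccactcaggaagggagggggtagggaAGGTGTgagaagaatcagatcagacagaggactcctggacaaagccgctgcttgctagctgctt
In Prf1 the T-box letters began 24 bases before the start and the RUNX letters 130 bases before it. In Nkg7 these distances were 14 and 83 bases, and in Gzma 80 and 50 bases. Gzmb had no T-box letters in this window and held RUNX letters beginning 93 and 34 bases before the start. None of these matches overlapped another. The start used for Prf1 lies inside the annotated gene (chr10:61297751-61304684).

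RefSeq held a promoter for each of the 10 genes, with 2 entries for Ncr1. The T-box letters were present for 4 of the 10 genes (Prf1, Gzma, Gzmk and Nkg7), against 13.7% of 32851 promoters of the same length. The RUNX letters were present for 5 of the 10 (Ncr1, Prf1, Gzma, Gzmb and Nkg7), against 16.8%. The STAT letters TTCNNNGAA were present for 3 of the 10 (Gzmb, Nkg7 and Ifng), against 8.30%. A match is a description of the sequence, and binding was not measured. Gzma (chr13:113093824-113100981) and Gzmk (chr13:113171630-113180965) both lie on the minus strand, 70.6 kb apart.

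Ncr1 encodes NKp46, an activating receptor carried by NK cells and other innate lymphocytes. Ncr1 was at 32.3, 34.4 and 8.92 TPM in WT-NCD, at 12.95, 13.03 and 18.3 TPM in WT-HFD, at 22.4, 28.9 and 29.1 TPM in Casp11-/- NCD and at 7.52, 12.1 and 13.7 TPM in Casp11-/- HFD. Its SD was 3.08, 3.79 and 3.21 TPM in WT-HFD, Casp11-/- NCD and Casp11-/- HFD (n = 3 each), and diets did not overlap once WT-NCD replicate 3 was left out.

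The T-box factors had lower mean TPM than Nkg7, Gzma, Gzmb and Prf1 in each group without WT-NCD replicate 3. Eomes was at 10.2, 11.6 and 3.58 TPM in WT-NCD, at 3.80, 1.94 and 5.57 TPM in WT-HFD, at 5.23, 6.24 and 10.2 TPM in Casp11-/- NCD and at 3.34, 2.86 and 4.76 TPM in Casp11-/- HFD. Within each genotype the diets were apart without WT-NCD replicate 3, but the highest WT-HFD library lay above the lowest Casp11-/- NCD library. Tbx21 was at 10.1, 18.1 and 5.21 TPM in WT-NCD, at 4.90, 2.48 and 8.26 TPM in WT-HFD, at 24.5, 8.84 and 9.81 TPM in Casp11-/- NCD and at 2.70, 2.93 and 5.31 TPM in Casp11-/- HFD. Casp11-/- NCD replicate 1, the highest library for Tbx21, was also the highest for Gzmb and Fasl.

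The secreted and surface effectors were of similar level. Fasl, which encodes the ligand of the death receptor Fas, was at 13.9, 16.1 and 6.88 TPM in WT-NCD, at 4.45, 3.96 and 8.14 TPM in WT-HFD, at 16.3, 7.98 and 7.84 TPM in Casp11-/- NCD and at 2.34, 5.57 and 4.38 TPM in Casp11-/- HFD. Ifng, which encodes interferon-γ, was at 12.5, 24.4 and 11 TPM in WT-NCD, at 3.36, 1.56 and 8.29 TPM in WT-HFD, at 8.73, 4.49 and 11.9 TPM in Casp11-/- NCD and at 3.09, 1.84 and 5.69 TPM in Casp11-/- HFD. Ifng was the gene whose diets overlapped within Casp11-/- mice, because replicate 3 on HFD was above replicate 2 on NCD.

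**Figure D1:**
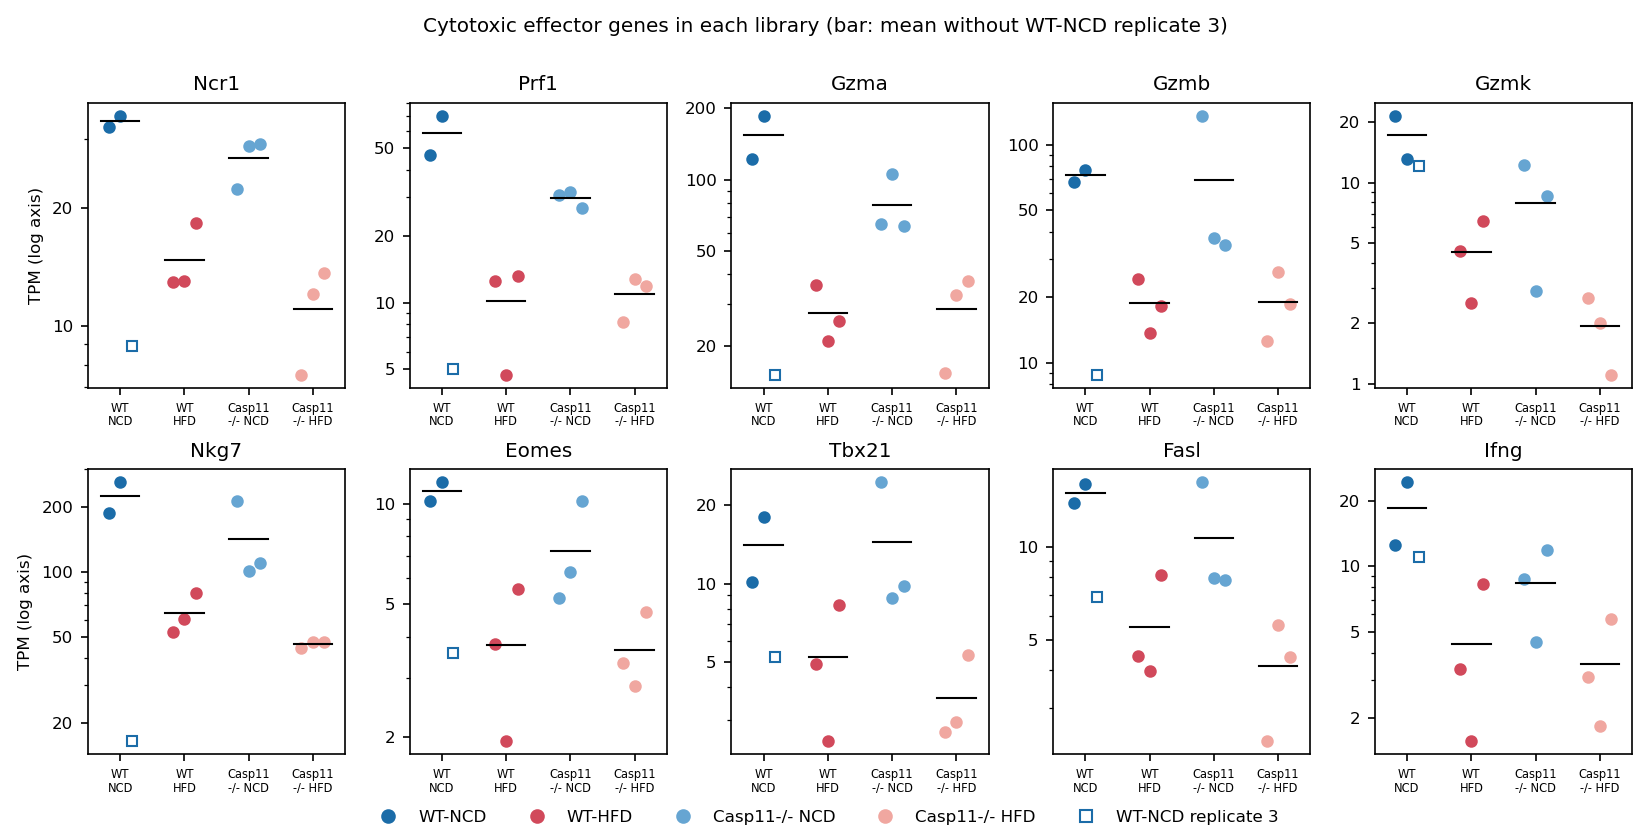
TPM of each effector gene (log axis) in each of the 12 libraries by group; filled points are libraries, the open square is WT-NCD replicate 3 and the bar is the group mean without it. Outside that library, Nkg7 ran from 44.3 to 262 TPM. Every WT-HFD point lay below both WT-NCD points for all 10 genes, where this held for 40.3% of the 17950 genes tested.

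Across the groups the order of the genes was similar. In WT-NCD without replicate 3, the means ran from Nkg7 (225 TPM) through Gzma (154 TPM), Gzmb (72.4 TPM), Prf1 (58.4 TPM) and Ncr1 (33.4 TPM) to Ifng (18.4 TPM), Gzmk (17.2 TPM), Fasl (15.03 TPM), Tbx21 (14.1 TPM) and Eomes (10.9 TPM). The ranges of Gzmb and Prf1 overlapped, as did those of each pair of neighbours from Ifng to Eomes, so those neighbours did not differ beyond their spread. Nkg7, Gzma and Gzmb held the first 3 places in all 4 groups, and Gzmk was last in Casp11-/- HFD at 1.93 ± 0.786 TPM (SD, n = 3), close to the floor.

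The effect of HFD was tested within each genotype and averaged over both, with limma on log2(TPM + 1), a two-sided test and Benjamini-Hochberg adjustment over all genes tested. Adding 1 shrinks the fold changes of genes at low TPM. With all 12 libraries and TPM as deposited, all 10 genes were lower on HFD in each of these comparisons, and limma called 0 of 10 at an adjusted p under 0.05. Exceptions to this direction arose in WT mice, where leaving out WT-NCD replicate 2 put Nkg7 at 0.17, and under another scaling given below. In the averaged comparison 9 of 10 had an unadjusted p under 0.05, where 15.2% of the 19498 genes tested were lower at that level and 0.513% passed the adjusted threshold as lower. The gene above that level was Nkg7, with a log2 fold change of -1.04 (SE 0.62, adjusted p = 0.418). In WT mice 2 of 10 (Gzmk and Ifng) were below an unadjusted p of 0.05, against 6.27% of genes lower at that level and 0.103% lower past the adjusted threshold. In Casp11-/- mice 4 of 10 were, against 7.34% and 0% of genes. The median log2 fold change of the 10 genes was -1.27 in the averaged comparison, against -0.61 over all genes.

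Without WT-NCD replicate 3, all 10 genes passed the adjusted threshold in the averaged comparison, lower on HFD, while 17.3% of the 17950 genes tested were lower at that threshold and 34.1% at an unadjusted p under 0.05. Gzma had a log2 fold change of -1.96 (SE 0.35, adjusted p = 0.000843) and Prf1 of -1.94 (SE 0.35, adjusted p = 0.000803). Gzmb followed at -1.74 (SE 0.38, adjusted p = 0.0055), Nkg7 at -1.65 (SE 0.35, adjusted p = 0.00356) and Gzmk at -1.61 (SE 0.39, adjusted p = 0.011). Ifng, Tbx21, Fasl, Ncr1 and Eomes had log2 fold changes of -1.51, -1.48, -1.26, -1.18 and -1.10, with adjusted p-values of 0.0166 to 0.0377. The granule genes had larger log2 fold changes than the receptor and the T-box factors, though the 95% confidence intervals of Gzma (-2.69 to -1.23) and Eomes (-1.83 to -0.36) overlapped. By mean TPM over both genotypes this order did not hold throughout. Tbx21 was 3.22-fold higher on NCD than on HFD, against 3.16-fold for Nkg7 and 3.62-fold to 3.91-fold for Prf1, Gzma, Gzmb and Gzmk. This count of 10 was 4 when WT-NCD replicate 2 was also left out, against 2.96% of genes called lower, 5 without WT-HFD replicate 2, against 3.64%, and 6 without WT-NCD replicate 1, against 5.19%. All 10 genes were lower each time. Without replicates 2 or 1, WT-NCD is a single library that is assumed to vary like the other groups.

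Within WT mice and without WT-NCD replicate 3, Prf1 (log2 fold change -2.50, SE 0.52, adjusted p = 0.00614) and Gzma (-2.44, SE 0.53, adjusted p = 0.00839) passed, so 2 of 10 genes were called lower where 2.04% of genes were. Their mean TPM was 5.75-fold and 5.59-fold higher on NCD than on HFD (n = 2 and 3), and 3.62-fold and 3.33-fold higher on the protein-coding scale. All 10 genes had an unadjusted p under 0.05, where 14.3% of genes were lower at that level. Leaving out WT-NCD replicate 2 as well left 0 of the 10 called (1.08% of genes lower), but leaving out WT-NCD replicate 1 instead left 2 (1.54%), and either way a single WT-NCD library is assumed to vary like the other groups. Leaving out WT-HFD replicate 2 left 0 called (1.02%), and leaving out Casp11-/- NCD replicate 2 gave 6 (5.78%).

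WT-NCD replicate 3 enters the comparison within Casp11-/- mice only through the shared spread and the filter that sets which genes are tested. Without it, limma called 0 of 10 genes there, against 0.986% of genes called lower. Adjusted p-values ran from 0.0999 for Nkg7 to 0.258 for Eomes, and 8 of 10 genes had an unadjusted p under 0.05, against 24.3% of genes lower at that level. The largest log2 fold changes were those of Tbx21 (-1.63, SE 0.51) and Gzmb (-1.56, SE 0.51), and the mean TPM of Gzmk was 4.09-fold higher on NCD than on HFD (n = 3 each). That fold was 2.44 with overlapping diets on the protein-coding scale, and the HFD values of Gzmk lay near the floor. When Casp11-/- NCD replicate 2 was left out as well, 9 of 10 genes were called, where 46.1% of genes were called lower. That library held 22.3% of its TPM on protein-coding genes, against 36.7% and 42.4% in the other libraries of its group.

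**Figure D2:**
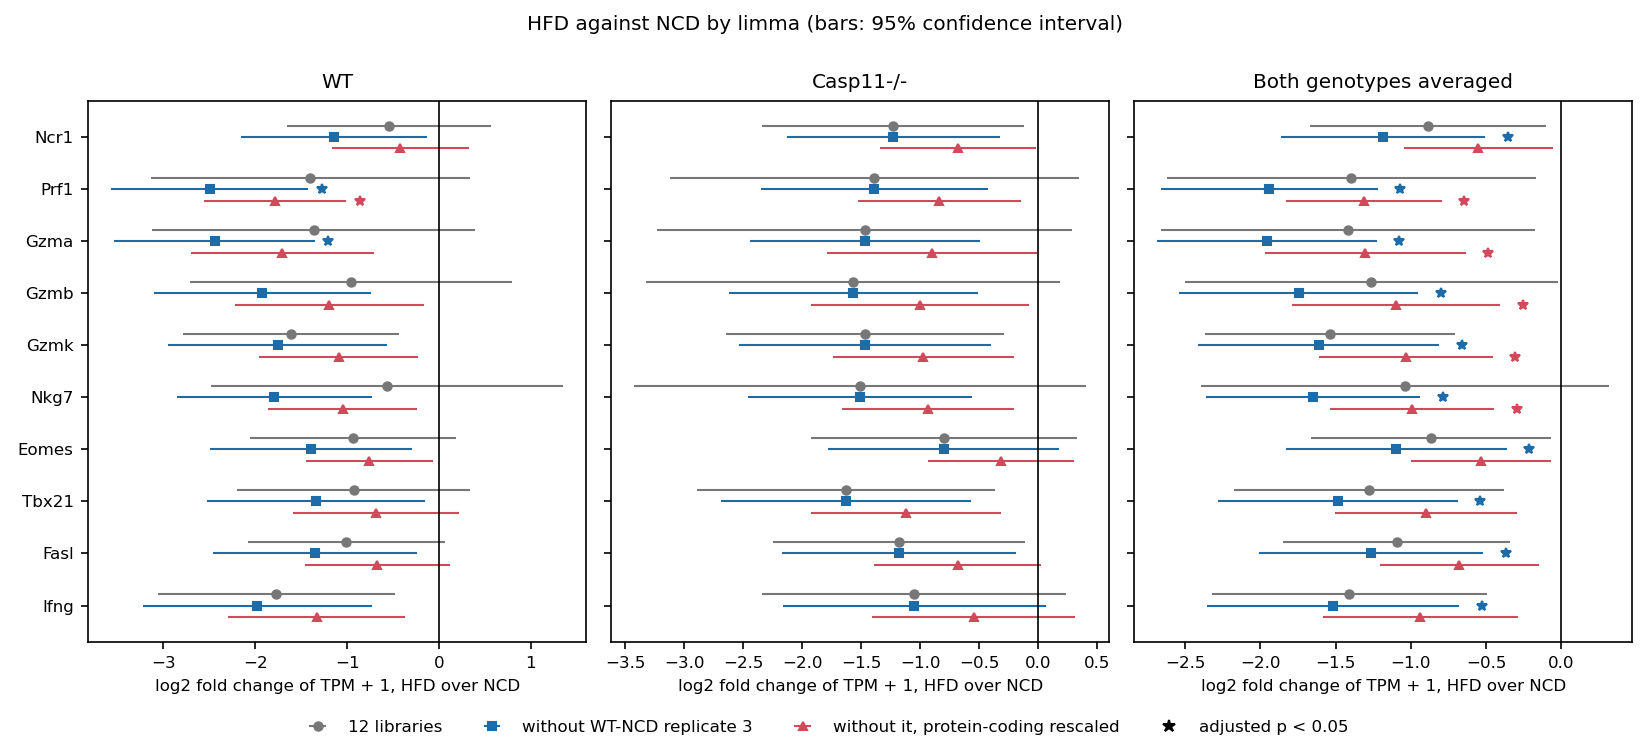
Log2 fold change of TPM + 1, HFD over NCD, for each effector gene with its 95% confidence interval from limma, in WT, in Casp11-/- and averaged over both; circles are all 12 libraries, squares are without WT-NCD replicate 3, triangles are without it on the protein-coding scale, and a star marks an adjusted p under 0.05. All points of these 3 fits lie below 0. The squares carry 2 stars in WT, 0 in Casp11-/- and 10 in the averaged comparison, where 2.04%, 0.986% and 17.3% of all genes were called lower. Outside these fits, 4 genes turned above 0 in WT with all 12 libraries once the most abundant 1% of genes was removed.

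Part of this difference moved with the scaling of the libraries. Among the 12368 protein-coding genes tested without WT-NCD replicate 3, TPM as deposited gave 3728 lower and 224 higher calls in the averaged comparison, 30.1% of genes called lower, with a median over these genes of -0.60 on the log2 scale. All 10 effector genes were among those called lower. Rescaling to the protein-coding total, over the same 12368 genes, gave 772 lower and 914 higher calls and a median of -0.05. On the rescaled values all 10 effector genes were still lower on HFD, their median difference was -0.96 on the log2 scale, and 5 of 10 (Prf1, Gzma, Gzmb, Gzmk and Nkg7) were called where 6.24% of genes were called lower. Prf1 had the largest change (-1.31, SE 0.24, adjusted p = 0.00683), and Tbx21 and Ifng had adjusted p-values of 0.0501 and 0.054. In WT mice 1 of 10 genes, Prf1, was called (-1.78, SE 0.36, adjusted p = 0.0442), against 0.307% of genes called lower. In Casp11-/- mice limma called 0 of 10, against 0.865% of genes called lower, and 7 of 10 had an unadjusted p under 0.05, against 15.2% of genes lower at that level. With all 12 libraries on this scale, Gzmk alone was called in the averaged comparison (-1.17, SE 0.27, adjusted p = 0.0347), against 1.11% of genes called lower. Limma then called 0 of 10 in WT and 0 of 10 in Casp11-/- mice, against 0.0313% and 0% of genes called lower, and 4 and 2 of 10 had an unadjusted p under 0.05, against 6.02% and 6.6% of genes lower at that level.

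The direction of 4 genes in WT mice rested on the scaling together with WT-NCD replicate 3. When the most abundant 1% of genes was removed and the rest rescaled, with all 12 libraries, Ncr1, Gzmb, Tbx21 and Fasl were higher on HFD in WT mice, at log2 fold changes of 0.60, 0.19, 0.07 and 0.06 (adjusted p = 0.664 to 0.955 by limma), and Nkg7 was among the genes removed. Without WT-NCD replicate 3 the same removal left all 9 remaining genes lower in WT, in Casp11-/- and in the averaged comparison, where 4 of 9 (Prf1, Gzma, Gzmk and Ifng) were called against 6.08% of genes called lower.

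The separation of single libraries was counted too. Without WT-NCD replicate 3, every HFD library was below every NCD library for 10 of 10 genes in WT mice (2 NCD against 3 HFD libraries), where this held for 40.3% of the 17950 genes, and for 9 of 10 genes in Casp11-/- mice, where it held for 16.4%. Over both genotypes, also without it, this held for 6 of 10 genes (Ncr1, Prf1, Gzma, Gzmb, Nkg7 and Tbx21), against 5.6%. After rescaling to the protein-coding total, still without WT-NCD replicate 3, it held for 9 of 10 genes in WT mice against 19.8% of 12368 genes, for 4 of 10 in Casp11-/- mice against 14.5%, and over both genotypes for Prf1 alone, 1 of 10, against 4.25%. With all 12 libraries, separation held on TPM for 2 of 10 genes in WT mice, Gzmk and Ifng, against 13.7% of 19498 genes, and for 0 of 10 over both genotypes, against 2.41%. On the protein-coding scale with all 12 libraries it held for 4 of 10 genes in WT mice (Gzmk, Eomes, Fasl and Ifng), against 9.1% of 12796 genes, and for 0 of 10 over both genotypes, against 1.98%. Without WT-NCD replicate 3, rescaled Prf1 was at 15.3 to 44.4 TPM on NCD and at 7.20 to 13.1 TPM on HFD.

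A ratio of 2 genes within a library is free of such scaling. The reference used here, Ncr1, is itself 1 of the 10 genes, and in WT mice without WT-NCD replicate 3 it differed least between diets by mean TPM. It was 2.26-fold higher on NCD than on HFD, against 2.70-fold for Tbx21 to 5.75-fold for Prf1. This choice of reference therefore favoured lower ratios on HFD in WT mice. Relative to Ncr1, which served as the reference for NK cells and related lymphocytes, 6 of the other 9 genes had lower ratios in every WT-HFD library than in both WT-NCD libraries left when replicate 3 was set aside, where 5.29% of 17949 genes had, and the other 3 (Tbx21, Fasl and Ifng) overlapped. The ratio of Prf1 to Ncr1 was 1.44 to 2.04 in WT-NCD and 0.361 to 0.973 in WT-HFD, and that of Gzma was 3.78 to 5.40 in WT-NCD and 1.40 to 2.77 in WT-HFD. In Casp11-/- mice all 9 ratios overlapped between diets, and 0.351% of genes had lower ratios in every HFD library. Prf1 was at 0.927 to 1.38 times Ncr1 on NCD and at 0.866 to 1.09 times on HFD, and Gzma at 2.19 to 3.65 times and 2.05 to 2.74 times. In WT-NCD replicate 3 the ratios of Prf1 and Gzma to Ncr1 were 0.560 and 1.69, within the WT-HFD range, and that of Gzmk was 1.35, above all other libraries. These ratios were chosen after the values were seen and were not tested, and a ratio shows unequal levels without telling which gene differed.

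**Figure D3:**
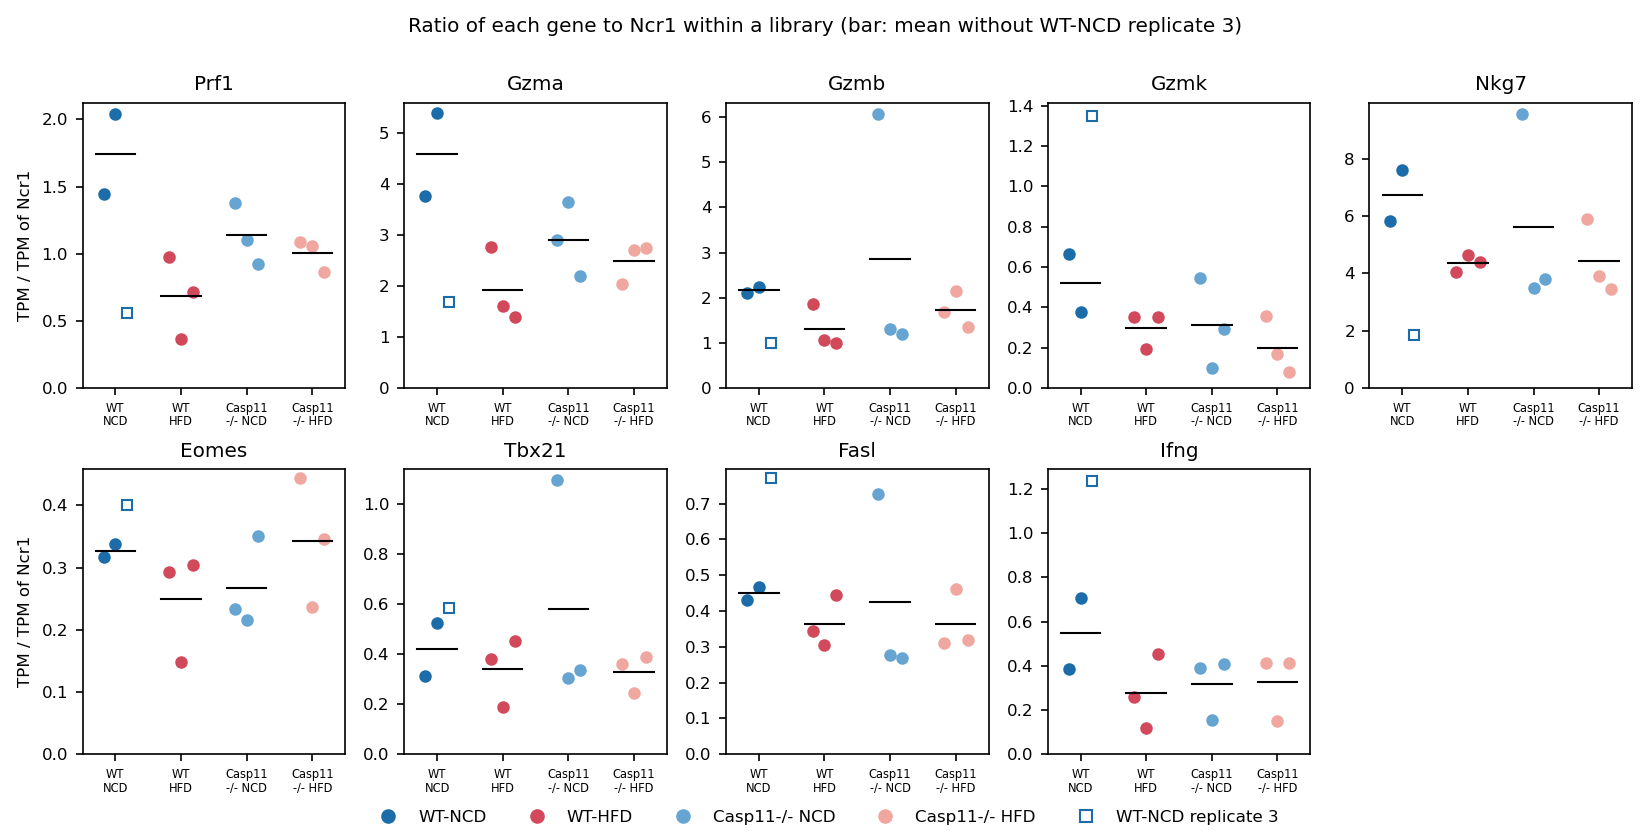
TPM of 9 effector genes divided by the TPM of Ncr1 in the same library, by group; filled points are libraries, the open square is WT-NCD replicate 3 and the bar is the mean without it. Prf1 and Gzma sit lower in all 3 WT-HFD libraries than in both filled WT-NCD points, while in Casp11-/- mice the diets overlap for all 9 ratios. In WT mice without WT-NCD replicate 3, Ncr1 itself differed least between diets by mean TPM among the effector genes.

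Whether the diet difference depended on the labelled genotype was tested as the interaction, the diet difference in Casp11-/- minus that in WT. Because strain background goes with the label, this is not a test of caspase-11 alone. Limma called 0 of 10 genes with all 12 libraries and 0 of 10 without WT-NCD replicate 3, and 0 of 10 had an unadjusted p under 0.05 in either fit. Over all genes, 0% and 0.00557% were called and 0.79% and 2.6% had an unadjusted p under 0.05. Prf1 had an interaction of 0.01 on the log2 scale with all libraries (95% confidence interval -2.44 to 2.47) and of 1.11 without WT-NCD replicate 3 (-0.33 to 2.55). For Gzma these values were -0.11 (-2.60 to 2.39) and 0.97 (-0.49 to 2.43), so its sign turned with that library, and it was at 0.15 with all libraries on the protein-coding scale. The intervals allow a difference between genotypes of the size of the diet difference itself, and they do not show that the genotypes responded alike.

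The genotypes were also compared within each diet. On NCD, without WT-NCD replicate 3, all 10 genes were lower in the libraries labelled Casp11-/- than in WT, from -1.17 for Gzmk to -0.06 for Tbx21 on the log2 scale, although Tbx21 was at 0.07 on the protein-coding scale. With all 12 libraries 4 of 10 were lower, against 6 of 10 on the protein-coding scale and 2 of 9 with the most abundant 1% of genes removed. Limma called 0 of 10 in both fits, against 0.0557% and 0% of genes, and 0 of 10 had an unadjusted p under 0.05, against 3.24% and 1.5% of genes. On HFD, 7 of 10 genes (8 of 10 on the protein-coding scale) were lower in the libraries labelled Casp11-/-, from -0.88 for Gzmk to 0.19 for Prf1, and again 0 of 10 were called in both fits, against 0% of genes, with 0 of 10 at an unadjusted p under 0.05, against 0.752% of genes without WT-NCD replicate 3 and 0.154% with it. Gzmk had the lowest value of this comparison on HFD, with 1.11 to 2.67 TPM in Casp11-/- HFD and 2.52 to 6.42 TPM in WT-HFD, and its 95% confidence interval (-1.95 to 0.19 without WT-NCD replicate 3) included 0.

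Other genes of the cytotoxic pathway were counted in the averaged diet comparison without WT-NCD replicate 3, beside the 17.3% of all genes called lower. Of the NK cell markers, 7 of 12 were called lower and none higher, among them Ccl5 (-1.82), a chemokine stored by cytotoxic lymphocytes, the receptor Klrb1c (-1.36) and S1pr5 (-1.45), a receptor for exit from tissue. Of the transcription factors of cytotoxic lymphocytes, 7 of 11 tested were called lower, with Prdm1 (-1.80), which encodes Blimp-1, Ikzf3 (-1.69) and Tox (-1.43) at the smallest p. Of the granule proteins, 2 of 5 tested were called lower, the cystatin Cst7 (-1.52) and the cathepsin Ctsw (-1.55), and Srgn, the proteoglycan that packs granules, was at -0.71 (adjusted p = 0.197 by limma). On the protein-coding scale 3 of 12, 4 of 11 and 2 of 5 genes of these lists were called lower, beside 6.24% of the protein-coding genes tested.

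The machinery that moves and fuses granules had 3 of 8 genes called lower (Coro1a, Unc13d and Stxbp2, at -1.67, -1.43 and -1.35), and the adaptors of activating receptors 3 of 8 (Syk, Zap70 and Cd247, at -1.69, -1.41 and -0.98). Of the cytokine inputs 4 of 11 were called lower, led by the receptor Il21r (-1.96), with the shared receptor chain Il2rg at -1.45. Of the death ligands and receptors 2 of 8 were called, the lymphotoxins Ltb (-2.09) and Lta (-1.05). Of the inhibitors that protect cells from granzymes and perforin 1 of 4 was called, Serpinb9b (-0.66). Serpinb9b was at the floor in every WT-HFD library and reached at most 4.82 TPM outside WT-NCD replicate 3. Lta was at the floor in every Casp11-/- HFD library. On the protein-coding scale the lower calls in these 5 lists numbered 2, 1, 1, 1 and 0, and 1, 0, 1, 2 and 0 genes of them were called higher there.

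Of the 10 interferon-γ signalling genes and targets, 2 were called lower beside the 17.3% of all genes, the class II transactivator Ciita (-1.68) and the inhibitor Socs1 (-1.15), and the median was -0.60. Cxcl9, an interferon-γ-induced chemokine, was at 0.90 (adjusted p = 0.111 by limma), above 0. Cxcl9 measured 15 and 8.96 TPM in WT-NCD replicates 1 and 2, and 24.7, 16.1 and 47.2 TPM in WT-HFD. It measured 4.19, 5.53 and 13.5 TPM in Casp11-/- NCD and 11.995, 5.64 and 21.6 TPM in Casp11-/- HFD, which overlapped. This list had on the protein-coding scale 1 lower and 1 higher call and a median of 0.05.

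Markers of other cell types were called between the diets beside the effector genes. B cell markers were called lower on HFD for 8 of 8 genes and T cell markers for 7 of 13, with medians of -2.26 and -1.09 against -1.56 for the effector genes and -0.39 for all genes. Cd79a, which encodes a chain of the B cell receptor, was at -2.69 and Cd3e, which encodes a chain of the T cell receptor complex, at -1.59. Kupffer cell markers were called higher for 8 of 9 genes, where 1.07% of all genes were called higher, with Cd5l (3.69), Vsig4 (3.25) and Clec4f (2.93) at the smallest p. Sinusoidal endothelial markers were called higher for 4 of 5 genes, and limma called 0 of 6 monocyte, 0 of 7 neutrophil and 0 of 6 hepatocyte markers. Of these 3 lists, 2, 1 and 0 genes had an unadjusted p under 0.05, all lower, where 34.1% of all genes were lower at that level. With all 12 libraries, limma called 6 of 9 Kupffer cell markers higher, where 0.041% of all genes were, and 0 of the 123 tested genes of the other 15 lists. Of these 123 genes, 33 had an unadjusted p under 0.05, 27 of them lower, where 15.2% of all genes were lower at that level. On the protein-coding scale without WT-NCD replicate 3, calls were 8 of 8 lower for B cell markers and 1 of 10 lower for T cell markers. There 9 of 9 Kupffer cell and 5 of 5 endothelial markers were called higher, where 7.39% of the protein-coding genes tested were.

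The summed TPM of these lists are given beside those of the effector genes. The 10 effector genes summed to 525 and 713 TPM in WT-NCD replicates 1 and 2, to 125 to 192 TPM in WT-HFD, to 313 to 536 TPM in Casp11-/- NCD and to 102 to 151 TPM in Casp11-/- HFD. The 12 NK cell markers summed to 617 and 764 TPM, 168 to 364 TPM, 323 to 796 TPM and 147 to 212 TPM in the same groups, and the 13 T cell markers to 479 and 538 TPM, 120 to 329 TPM, 203 to 790 TPM and 118 to 142 TPM. B cell markers summed to 1392 and 1554 TPM, 150 to 342 TPM, 481 to 1960 TPM and 197 to 325 TPM, and Kupffer cell markers to 78.6 and 79.4 TPM, 260 to 850 TPM, 48.6 to 140 TPM and 289 to 455 TPM. Defining markers of each type were above the floor in every library. Without WT-NCD replicate 3, Cd79a was at 41.4 to 571 TPM, Clec4f at 4.01 to 98.3 TPM and Alb, the albumin gene of hepatocytes, at 4445 to 18318 TPM. In WT-NCD replicate 3 they were at 13.3, 3.90 and 6.46 TPM, but most genes exceeded the floor in that library. The part of cell content in the levels of the effector genes was not tested. Neutrophil markers summed to 4122 TPM in Casp11-/- HFD replicate 2, against 103 and 222 TPM in the other libraries of its group. In that library 5 effector genes lay within the range of these other libraries, Prf1, Gzmb and Fasl (3 genes) above it and Eomes and Ifng (2 genes) below it, with Gzmb at 26.1 TPM against 12.6 and 18.6 TPM and Ifng at 1.84 TPM against 3.09 and 5.69 TPM.

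Relative to NK cell markers within a library, the sum of the effector genes was 0.851 and 0.934 in WT-NCD replicates 1 and 2 and 0.528 to 0.745 in WT-HFD, which did not overlap, and 0.601 to 1.04 in Casp11-/- NCD and 0.691 to 0.877 in Casp11-/- HFD, which did. Relative to T cell markers it was 1.10 and 1.33 in WT-NCD and 0.585 to 1.05 in WT-HFD, and 0.678 to 1.65 and 0.863 to 1.16 in the groups labelled Casp11-/- on NCD and HFD. Relative to B cell markers the order was the other way in WT mice, with 0.338 and 0.512 in WT-NCD and 0.563 to 0.837 in WT-HFD, while 0.160 to 0.696 in Casp11-/- NCD and 0.463 to 0.708 in Casp11-/- HFD overlapped. These ratios were also chosen after the values were seen and were not tested.

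**Figure D4:**
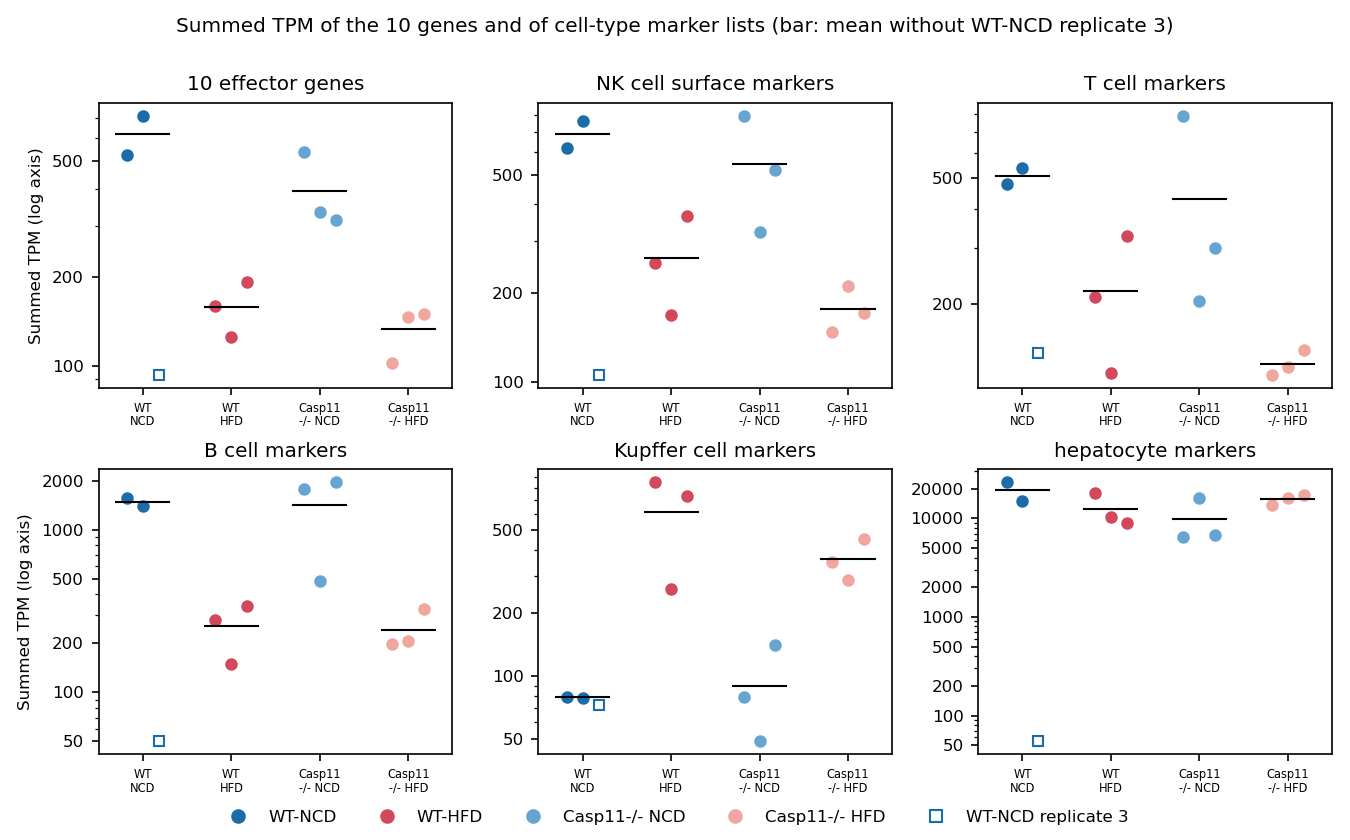
Summed TPM (log axis) of the 10 effector genes and of 5 lists of cell-type markers in each library by group; filled points are libraries, the open square is WT-NCD replicate 3 and the bar is the mean without it. Within each genotype, and leaving the open square aside, the effector genes and the NK, T and B cell markers are lower on HFD and the Kupffer cell markers higher (260 to 850 TPM in WT-HFD against 78.6 and 79.4 TPM in WT-NCD), and the hepatocyte markers of WT-NCD replicate 3 sum to 54.7 TPM.

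The effector genes varied together across libraries. Over the 11 libraries without WT-NCD replicate 3, the 45 pairs of these genes had Pearson r of 0.637 to 0.954 on log2(TPM + 1), with a median of 0.834 (0.788 with all 12 libraries), and of 0.195 to 0.913 on the protein-coding scale, with a median of 0.669. These are descriptions: the libraries share the diet groups and the scaling. Among 11422 other protein-coding genes, the 5 whose pattern was closest to the mean z-score of the 10 genes were H3c11, Ccl5, H2bc7, Chst10 and H3c4, with r of 0.988, 0.986, 0.985, 0.980 and 0.980 over the 11 libraries. H3c11, H2bc7 and H3c4 are replication-dependent histone genes, whose family members share sequence, so their counts are uncertain. Chst10 encodes a sulfotransferase that makes the HNK-1 carbohydrate. On the protein-coding scale Ccl5 had the highest r of all (0.967), followed by Chst10 (0.954) and H3c11 (0.953). Ccl5 measured 288 and 317 TPM in the WT-NCD libraries kept, 47.4 to 97.4 TPM in WT-HFD, 124 to 191 TPM in Casp11-/- NCD and 41.1 to 67.6 TPM in Casp11-/- HFD.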

How the data were processed

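Total RNA of the liver immune cell fraction was sequenced in 12 libraries, 3 for each combination of genotype and diet. The authors used a stranded kit with random priming (Pico Input SMARTer), mapped the single-end reads to mm10 by STAR, and calculated TPM with Qlucore Omics Explorer. The deposited score of each gene is this TPM with low values raised to a floor, so neither read counts nor depth are known and differences near the floor cannot be seen. Each file had 6 rows without a gene name, which were left out. Pairs of libraries with identical values numbered 0.

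Log2(TPM + 1) was fitted with limma 3.58.1 (R 4.3.3, mean-dependent prior variance, all groups in 1 model) for genes that exceeded the floor in 3 or more libraries. P-values were two-sided and adjusted by Benjamini-Hochberg over every gene tested, with calls at an adjusted p under 0.05, and the code was tested on simulated data. RefSeq annotation gave 21702 protein-coding genes and the promoters (GRCm38.p6). Tables and figures were made in Python 3.11.15 (pandas 2.3.3, numpy 2.4.6, matplotlib 3.10.9).

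The 10 genes and the 16 other lists were chosen with earlier results of these data known. Named were the 10 genes, at most the 3 genes of smallest unadjusted p in each list, the first 2 markers of each cell type, Casp4, and the 5 protein-coding genes of most similar pattern among those above the floor in at least 6 of 11 libraries. The other granzymes were named after their values were seen. Alternatives were other filters, a pseudocount of 0.1, the spread of the compared groups alone, library weights, a replicate block, 2 rescalings, protein-coding genes alone, and each library left out.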

Additional observations from a re-analysis of the deposited data

How the results depend on the processing

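The 3 libraries per group and an unknown depth limit these results, and the WT-NCD group without replicate 3 rests on 2 libraries. Over 37 fits of the averaged diet comparison, each effector gene tested was lower on HFD in every fit. The number of the 10 genes called there was 0 with all 12 libraries, where 0.513% of all genes were called lower. It was 0 to 10 as each library was left out in turn. Leaving out WT-NCD replicate 3 gave 10 (17.3% of all genes called lower), and leaving out Casp11-/- NCD replicate 2 gave 1 (7.21%). The number was 3 with genes above the floor in every library (5.49%) and 10 with library weights (48%). It was 1 on the protein-coding scale (1.11%) and 5 on that scale without WT-NCD replicate 3 (6.24%). Settings added after seeing the data, all without that library, gave 10 with a pseudocount of 0.1, 7 with genes above the floor in at least 1 library, 4 with the most abundant 1% of genes removed, 10 with TPM of protein-coding genes alone, and 4 to 10 as each of the other 11 libraries was left out too. In these settings, in that order, 18.4%, 4.35% and 6.08% of all genes tested were called lower, and with protein-coding genes alone 30.1% of those. With a further library left out, 10 were called without WT-HFD replicate 3 (20.8%), Casp11-/- NCD replicate 2 (45.8%) or Casp11-/- NCD replicate 3 (11.7%). Without WT-HFD replicate 2, 5 were called (3.64%). In WT mice the number was 0 with all libraries (0.103%) and 0 to 2 as each was left out, with 2 reached without WT-NCD replicate 3 (2.04%). It was 10 with library weights (35.1%) and 1 on the protein-coding scale without WT-NCD replicate 3 (0.307%). There the added settings gave 2 with the pseudocount, 1 with the filter, 1 with the removal, 2 with protein-coding genes alone and 0 to 6 with a further library left out. The added settings in WT mice, in that order, had 2.19%, 0.388% and 1.19% of all genes tested called lower, and with protein-coding genes alone 0.695% of those. With a further library left out, 6 were called without Casp11-/- NCD replicate 2 (5.78%) and 0 without WT-HFD replicate 2 (1.02%). In Casp11-/- mice the number was 9 with library weights, against 44% of all genes called lower. It was 0 to 9 with a further library left out, with 9 reached without Casp11-/- NCD replicate 2 (46.1%). For genotype on NCD, library weights called 2 genes, against 7.39% of all genes called in either direction. Library weights called 9550 of the 19498 genes in WT mice, 35.1% of genes as lower. The cause of these differences was not tested.

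The replicate block called 0 of the 10 genes in each comparison with all 12 libraries. Without WT-NCD replicate 3 it called 10 in the averaged comparison, 6 in WT mice and 4 in Casp11-/- mice, beside 35.6%, 6.04% and 5.97% of all genes called lower. Between libraries of the same number, deviations from the group mean correlated at -0.642 to 0.470. The lowest value was that of WT-NCD replicate 3 with WT-HFD replicate 3. Libraries of different numbers were not compared, so whether the numbers pair libraries was not settled.

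Removing the most abundant 1% of genes, with all 12 libraries, reversed the diet difference in WT mice of Ncr1 (0.60), Gzmb (0.19), Tbx21 (0.0736) and Fasl (0.0566). Nkg7 ranged from -2.03 to 0.17 there as libraries were left out, the highest without WT-NCD replicate 2. The interaction of Prf1 ranged from -0.68 to 1.40 as libraries were left out, and was -0.00577 with the pseudocount of 0.1 and -0.43 with the removal. That of Gzma ranged from -0.79 to 1.35 as libraries were left out, and was 1.12 with library weights, 0.15 on the protein-coding scale and 0.80 on that scale without WT-NCD replicate 3. Without that library it was 0.9995 with the block, 0.97 with the filter, 0.98 with the pseudocount, 0.97 with protein-coding genes alone and 0.93 with the removal.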
